A study of Bos grunniens x Bos taurus and Bos grunniens with 6 samples.

Results

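Wnt signalling genes were examined in testis tissue as 63 genes of the 18918 in the deposited table, chosen by gene symbol. The choice was made with earlier results of these data known. They comprised 18 Wnt ligands, 2 genes of ligand secretion, 9 Frizzled receptors, 3 co-receptor genes, 7 genes of the R-spondin axis, 11 secreted inhibitors and Dickkopf relatives, 9 cytoplasmic genes and 4 TCF/LEF factors. Each of the 63 symbols stood on 1 gene, and APC, LRP5 and FZD3 were not analysed here. RNA-seq libraries came from 3 male yak of the Gannan breed (Yak8, Yak9 and Yak10) and 3 male cattle-yak (TES5, TES6 and TES7), 1 library per animal, all 4 years old. Cattle-yak are F1 hybrids of a Jersey bull and a Gannan yak cow, and their males are sterile. Origin differed as well, since each group was sampled in its own county, so origin cannot be told apart from the genotype. The labels give castration for all animals, whereas the study's methods give it for cattle-yak and euthanasia for yak, and if so that too cannot be told apart. Values of a gene are given below in the order TES5, TES6 and TES7 for cattle-yak and Yak8, Yak9 and Yak10 for yak.

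Wnt proteins are secreted, lipid-modified ligands that bind a Frizzled receptor together with the co-receptor LRP5 or LRP6. In the canonical branch this stops the AXIN and APC complex from marking β-catenin for destruction, and β-catenin then acts with TCF/LEF factors on target genes. R-spondins bound to LGR receptors keep more Frizzled at the cell surface by removing ZNRF3, while SFRP, WIF1 and DKK proteins act against the ligands or the co-receptors from outside the cell. In the testis, Wnt ligands of somatic cells are known to act on spermatogonia, and strong β-catenin activity in Sertoli cells is known to disturb spermatogenesis.

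The FPKM values rested on 11175100 to 11834987 fragments on genes in cattle-yak and, for yak, on 12991641 to 13136129. Groups were compared with limma on log2 (FPKM + 1) for the 15042 genes whose average FPKM reached 0.5, and a gene was called at an adjusted p under 0.05 and a log2 (foldchange) beyond 1. Over all genes tested the median log2 (foldchange) came to 0.51, and median-of-ratios scaling brought it to 0.01. Centring each library on 12 Sertoli cell genes brought it to −1.68. The Sertoli markers summed to between 2526 and 2675 FPKM in cattle-yak libraries and between 509 and 577 in those of yak, and 12 of 12 genes were called higher. The markers of Leydig, myoid and stromal cells were called higher in 8 of 8, 7 of 7 and 6 of 6 genes, those of endothelium in 4 of 7 (1 lower), of macrophages in 3 of 7 (2 lower) and of spermatogonia in 6 of 7. Of the spermatocyte markers 1 of 6 was called higher and 2 lower, whereas 4 of 5 round spermatid and 7 of 7 elongating spermatid markers were called lower. Markers were counted by gene and not by symbol, so symbols such as CYP17A1 (Leydig), PTPRC (macrophage) and OAZ3 (elongating spermatid) entered more than once. AMHR2, HSD3B1, MRC1, SPAG6, ACRV1, CATSPER1 and PRM1 were not found by symbol. The Sertoli list held 12 symbols including AMHR2. In its 12 genes a symbol thus also entered more than once, and it weighed more in the centring. The elongating spermatid markers summed to between 15.8 and 78.7 FPKM in cattle-yak but to between 9193 and 11331 in yak, and SPACA4 of the round spermatid list was at 0 in TES7. In whole testis, fewer cells of a type and less RNA per cell cannot be told apart, and the part of cell composition in the results below was not tested.

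Of the 63 genes, 47 reached the minimum for the test and 16 did not. Cattle-yak testis had higher levels of 20 of them (42.6% of those tested), led on the log2 (FPKM + 1) scale by DKK3, WNT6, FZD1, LGR4 and FZD6. By the ratio of group means, which has no pseudocount, FZD2 (8.74-fold), WNT2 (8.05-fold) and WNT9A (7.84-fold) came after DKK3 and before FZD1 (7.41-fold) and WNT6 (7.33-fold). Cattle-yak had lower levels of 6 (12.8%), namely DKKL1, WNT3, LEF1, WIF1, WNT3A and ZNRF3. Among all tested genes 33.4% were called higher and 20.8% lower. After median-of-ratios scaling, 13 of the 47 genes were called higher (27.7%) and 10 lower (21.3%), where all genes gave 17.7% and 27.8%. Relative to the Sertoli genes only DKK3 was called higher and 29 genes were called lower, against 0.226% and 72.5% of all genes. The cattle-yak values lay above every yak value in 28 of the 47 genes and below in 11, compared with 53.9% and 30.2% of all genes. In 12 of the 47 genes the mean of 1 group was under 0.5 FPKM, so that their fold change depended on the pseudocount. These genes reached the minimum only through the other group. They were WNT2, WNT9A, FZD2, FZD5, DKK1, FRZB and PORCN through cattle-yak, and WNT3, WNT3A, WIF1, RSPO2 and APC2 through yak. The shares of called genes include them.

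**Figure D1:**
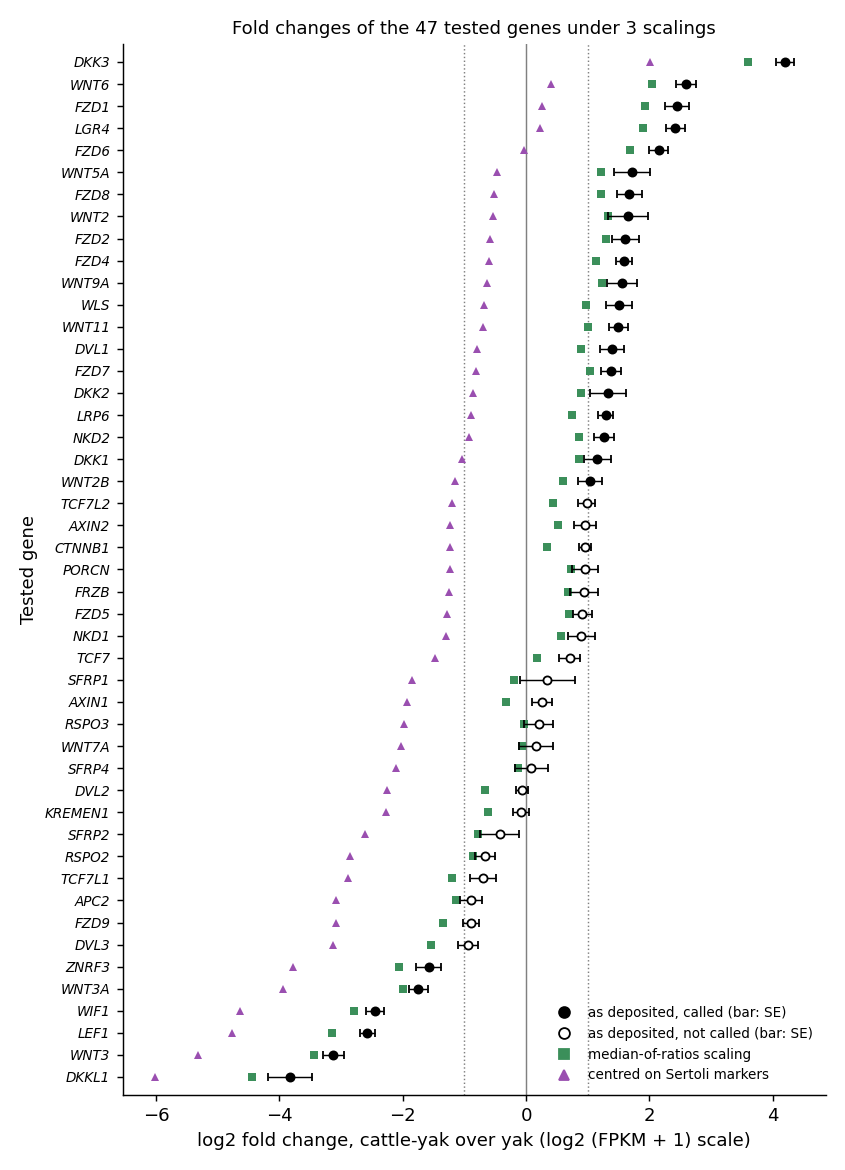
log2 (foldchange) of cattle-yak over yak for the 47 tested Wnt genes on the log2 (FPKM + 1) scale. Circles give the FPKM as deposited with the standard error (filled where called), squares median-of-ratios scaling and triangles values centred on 12 Sertoli genes. DKK3 was above 1 under all 3 scalings. The 6 genes called lower were below −1 under all 3, but this adds no support, since both other scalings shift the fold changes down (median of all genes 0.51, 0.01 and −1.68).

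The leading ligand differed between the groups. WNT6 was the first ligand of every cattle-yak, at between 39.2% and 50.7% of the summed ligand FPKM, while WNT3 was the first of every yak, at between 29.6% and 40.9%. In total the 18 ligands had 55.4, 64.7 and 60.9 FPKM in cattle-yak and 23.6, 24.3 and 25.6 in yak. WNT3 held at most 0.336% of the ligand FPKM in a cattle-yak library, and WNT6 held 11.5% to 17.6% in yak. Of the 9 ligands tested, 6 were called higher (66.7%) and 2 lower (22.2%), against 33.4% and 20.8% of all genes. Among the called ligands, WNT2 and WNT9A reached the minimum for the test only through cattle-yak, and WNT3 and WNT3A only through yak.

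WNT3 (ENSBGRG00000021554), a ligand of the canonical branch, had FPKM values of 0.134, 0.0709 and 0.205 in cattle-yak and 9.65, 7.19 and 10.2 in yak. Every yak animal was far above every cattle-yak animal, and the cattle-yak values rested on 4, 2 and 6 fragments against 320, 238 and 333. The log2 (foldchange) was −3.13 (standard error 0.17, adjusted p = 1.1e-06), and −5.95 with voom on the fragments, a model without the pseudocount of 1 FPKM. Its close relative WNT3A (ENSBGRG00000003066) had 0.0723, 0.0765 and 0.0492 FPKM in cattle-yak, from 3, 3 and 2 fragments, and 2.30, 2.57 and 2.88 in yak. Again the groups did not overlap, and WNT3A fell by 1.75 on the log2 scale (standard error 0.15, adjusted p = 1.1e-05), or by 5.06 with voom on fragments. Of the 9 tested ligands, only WNT3 and WNT3A were called lower under the deposited scaling and under median-of-ratios scaling.

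WNT6 (ENSBGRG00000000692), a ligand known from Sertoli cells, had 28.1, 25.4 and 27.7 FPKM in cattle-yak and 2.71, 4.26 and 4.10 in yak. The group means were 27.1 ± 1.46 and 3.69 ± 0.85 (SD, n = 3), and the log2 (foldchange) was 2.60 (standard error 0.16, adjusted p = 2.0e-06). It was the only tested ligand above the Sertoli genes when the libraries were centred on them, by 0.41, without passing the test. WNT5A (ENSBGRG00000021892), the main ligand of the non-canonical branch, had 7.07, 17.8 and 9.78 FPKM in cattle-yak and 2.12, 2.95 and 2.67 in yak. All cattle-yak values were above all yak values, but the cattle-yak animals differed from each other by more than those of yak, with TES6 highest. The log2 (foldchange) of WNT5A was 1.72 (standard error 0.29, adjusted p = 6.2e-04). WNT11 (ENSBGRG00000017533), also mainly non-canonical, had 6.92, 8.44 and 8.74 FPKM against 1.91, 2.64 and 2.04. Its log2 (foldchange) was 1.50, and with median-of-ratios scaling 1.01, just past the threshold.

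The less abundant ligands WNT2, WNT9A and WNT2B were also called higher in cattle-yak. WNT2 (ENSBGRG00000003541) had 5.37, 1.75 and 4.45 FPKM in cattle-yak and 0.691, 0.639 and 0.107 in yak. The groups were separate although TES6 had less than the other cattle-yak, and the log2 (foldchange) was 1.65 (adjusted p = 1.6e-03). For WNT9A (ENSBGRG00000003023) the FPKM was 1.85, 3.68 and 4.33 against 0.278, 0.557 and 0.422, with a log2 (foldchange) of 1.55. WNT2B (ENSBGRG00000005038) had 4.58, 5.34 and 2.96 FPKM against 1.52, 1.41 and 1.69. The log2 (foldchange) of WNT2B was 1.03 and lay under 1 with median-of-ratios scaling (0.59) and without TES5 (0.98), TES6 (0.89) or Yak9 (0.998). WNT7A did not pass the test (log2 (foldchange) 0.15, adjusted p = 0.62), with 1.62 FPKM in TES7 and 0.323 to 0.716 in the other libraries.

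The remaining 9 ligands were under the minimum. WNT10A, WNT1, WNT5B, WNT7B, WNT10B and WNT16 had group means from 0.0242 to 0.639 FPKM. WNT10A was lower in every cattle-yak than in any yak, with 16 fragments against 47. WNT5B (54 against 24) and WNT7B (44 against 11) were higher in every cattle-yak, while WNT1, WNT10B and WNT16 overlapped. WNT4, which together with RSPO1 promotes ovarian development, had 1 fragment in TES7 and 1 in each yak library. WNT8A had 1 fragment in each group, and WNT9B had 0 in cattle-yak and 2 in yak, where a count of 0 allows up to 3 fragments per library. A difference between the groups was not detectable for these 3 genes at this depth.

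**Figure D2:**
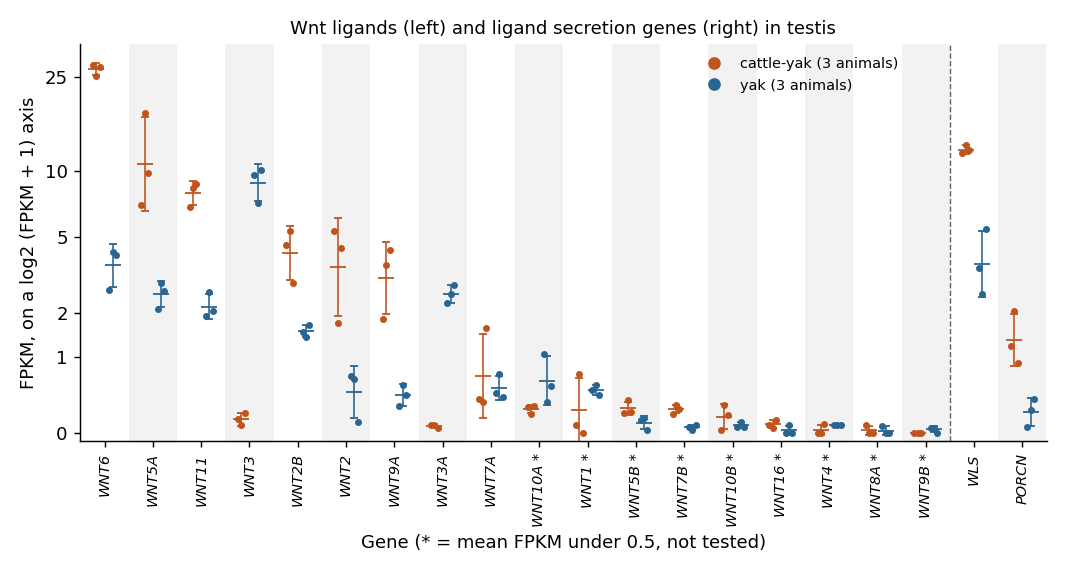
FPKM (log2 (FPKM + 1) axis) of 18 Wnt ligands and the secretion genes WLS and PORCN in each animal, with the mean and SD of the log2 values for cattle-yak and yak (n = 3). WNT6 is highest in cattle-yak, whereas WNT3 and WNT3A lie near 0 in cattle-yak and are well above it in yak.

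Both genes needed for Wnt secretion were more abundant in each cattle-yak animal than in any yak. WLS (ENSBGRG00000008504), which carries the ligands to the cell surface, had 11.9, 13.0 and 12.3 FPKM in cattle-yak and 3.52, 2.56 and 5.49 in yak. WLS rose by 1.51 on the log2 scale (standard error 0.22, adjusted p = 2.3e-04) and 0.98 with median-of-ratios scaling, just under the threshold. PORCN, the enzyme that attaches the lipid, had 1.21, 2.05 and 0.904 FPKM against 0.0591, 0.237 and 0.359. Its log2 (foldchange) was 0.95 (adjusted p = 3.2e-03) and thus not called, although it passed 1 without TES7 (1.10) or Yak10 (1.03). With voom on the fragments PORCN had 2.79 and was called higher.

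The Frizzled receptors together were more abundant in cattle-yak, while FZD9 was lower in every cattle-yak than in any yak. Their summed FPKM was 54.4, 57.4 and 44.1 in cattle-yak and 13.3, 11.5 and 12.4 in yak. FZD1 led in cattle-yak with 29.7% to 41.9% of the sum, and FZD9 led in yak with 32.1% to 35.3% but held 3.08% to 4.22% in cattle-yak. Of the 8 receptors tested 6 were called higher (75.0%, against 33.4% of all genes), with median-of-ratios scaling as well (17.7% of all genes), and FZD9 was called lower under that scaling and with voom. Relative to the Sertoli genes the 6 lay between −0.82 and 0.26. Of the receptors tested, FZD2 (called higher) and FZD5 (not called) reached the minimum only through cattle-yak.

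FZD1 (ENSBGRG00000019940) had 22.8, 20.0 and 13.1 FPKM in cattle-yak and 2.63, 2.40 and 2.50 in yak, and every cattle-yak value exceeded those of yak. On the log2 scale FZD1 rose by 2.45 (standard error 0.20, adjusted p = 9.0e-06). FZD6 (ENSBGRG00000007688), a receptor with roles in planar cell polarity, had 9.36, 10.9 and 9.36 FPKM against 1.75, 1.14 and 1.47. Between the groups FZD6 rose by 2.15 on the log2 scale (standard error 0.16, adjusted p = 4.4e-06). FZD8 (ENSBGRG00000010581) had 6.54, 8.65 and 6.20 FPKM against 1.84, 0.993 and 1.86, and FZD4 (ENSBGRG00000025585), also the receptor of norrin in blood vessels, 6.16, 6.86 and 6.82 against 1.69, 1.43 and 1.47. The groups did not overlap for either receptor, although Yak9 had less FZD8 than the other yak, and the log2 (foldchange) was 1.67 for FZD8 and 1.59 for FZD4.

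FZD2 (ENSBGRG00000025139) had 2.74, 4.16 and 2.54 FPKM in cattle-yak and 0.134, 0.674 and 0.272 in yak, where it rested on 3, 15 and 6 fragments. FZD7 (ENSBGRG00000018191) had 2.89, 2.96 and 2.95 FPKM in cattle-yak and 0.750, 0.531 and 0.312 in yak. Both were well separated between the groups, with a log2 (foldchange) of 1.61 for FZD2 and 1.37 for FZD7, and the latter was 1.03 with median-of-ratios scaling. FZD5 had 0.981 to 1.39 FPKM in cattle-yak and 0.0876 to 0.260 in yak but did not reach the fold threshold (log2 (foldchange) 0.91, adjusted p = 7.4e-04), whereas voom on the fragments gave 2.75 and called it higher. FZD10, under the minimum, had 39 fragments in the 3 cattle-yak and 6 in the 3 yak. FZD9 went the other way, with 1.68, 1.83 and 1.86 FPKM in cattle-yak and 4.28, 3.90 and 4.37 in yak. The log2 (foldchange) of FZD9 was −0.89 (adjusted p = 3.5e-04), so it was not called, and it was −1.34 with median-of-ratios scaling.

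Among the co-receptor genes, LRP6 (ENSBGRG00000000408) had 15.9, 13.8 and 14.2 FPKM in cattle-yak and 5.54, 5.07 and 5.51 in yak. The groups did not overlap, and the log2 (foldchange) was 1.30 (standard error 0.12, adjusted p = 2.0e-05), or 0.74 with median-of-ratios scaling. KREMEN1, which takes LRP6 from the surface together with DKK proteins, had 6.53, 7.53 and 7.20 FPKM against 7.65, 6.88 and 8.10. The animals of the groups overlapped for KREMEN1 (log2 (foldchange) −0.08, adjusted p = 0.59). KREMEN2 was under the minimum, with 18 fragments in cattle-yak and 5 in yak.

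In the R-spondin axis, the receptor and the ubiquitin ligase moved in opposite directions. LGR4 (ENSBGRG00000020409), a receptor of R-spondins, had 18.0, 23.9 and 17.9 FPKM in cattle-yak and 2.81, 2.57 and 3.29 in yak. LGR4 rose by 2.42 on the log2 scale (standard error 0.16, adjusted p = 2.7e-06), and it had 0.23 relative to the Sertoli genes, where it was not called. ZNRF3 (ENSBGRG00000018514), the ligase that removes Frizzled from the cell surface, had 1.46, 2.45 and 1.92 FPKM against 6.23, 7.51 and 9.78. All yak animals were above all cattle-yak animals, and ZNRF3 fell by 1.58 on the log2 scale (standard error 0.20, adjusted p = 1.2e-04).

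The R-spondins themselves were at low levels. RSPO2 had 0.130, 0.0827 and 0.372 FPKM in cattle-yak and 0.891, 0.823 and 0.925 in yak, without overlap, and its log2 (foldchange) of −0.66 (adjusted p = 4.9e-03) was not past 1, whereas voom on the fragments gave −2.35 and called it lower. RSPO3 had 1.19, 0.236 and 1.06 FPKM against 0.401, 0.603 and 0.608, a difference within the spread between animals (adjusted p = 0.43). RSPO1, RSPO4 and LGR5 were under the minimum. LGR5, a stem cell marker in other tissues, had 8 fragments in TES6 and 11 in Yak10 but 0 in the other 4 libraries.

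**Figure D3:**
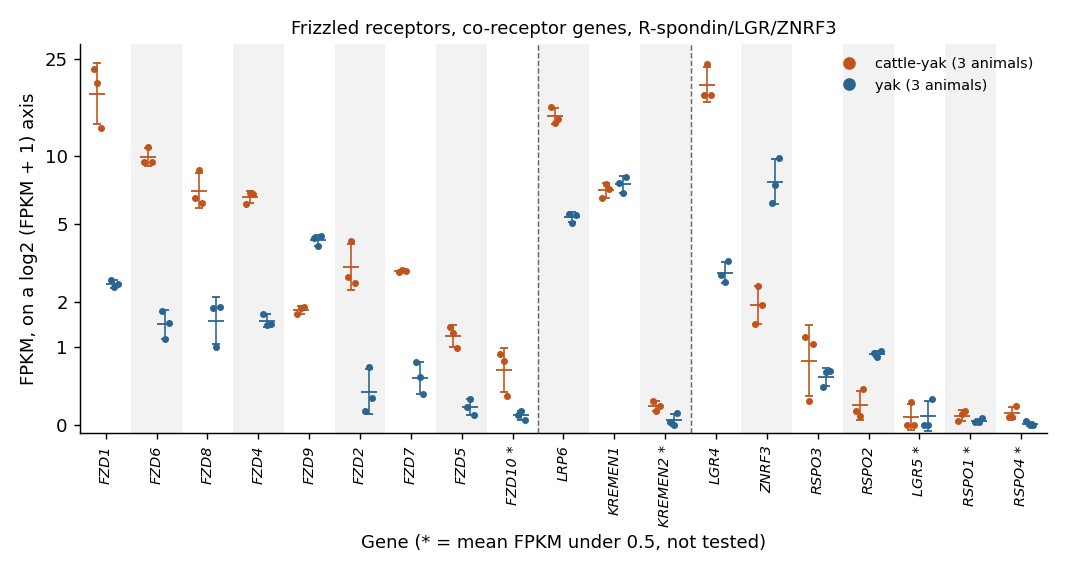
FPKM (log2 (FPKM + 1) axis) of 9 Frizzled receptors (left), 3 co-receptor genes (middle) and 7 genes of the R-spondin axis (right) in each animal, with the mean and SD of the log2 values (n = 3). FZD9, ZNRF3 and RSPO2 are higher in yak, KREMEN1 overlaps, and FZD1, FZD6, LRP6 and LGR4 are higher in cattle-yak.

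On the log2 (FPKM + 1) scale DKK3 rose and DKKL1 fell by more than any other of the 47 genes. By the ratio of group means WNT3 (65.9-fold), WNT3A (39.1-fold) and WIF1 (16.9-fold) fell further than DKKL1. DKK3 took 68.2% to 83.0% of the summed FPKM of these 11 genes in cattle-yak and 1.31% to 1.90% in yak. DKKL1 took 96.0% to 96.9% of it in yak and 11.7% to 28.1% in cattle-yak. Of the 9 genes tested, 3 were called higher (33.3%) and 2 lower (22.2%), shares close to the 33.4% and 20.8% of all genes. With median-of-ratios scaling 1 was called higher (11.1%) and 2 lower (22.2%), against 17.7% and 27.8% of all genes.

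DKK3 (ENSBGRG00000005751), a divergent Dickkopf protein that is a poor antagonist of Wnt, had 314, 369 and 279 FPKM in cattle-yak and 16.0, 14.3 and 19.4 in yak. It was 19.4-fold higher by the group means, which were 321 ± 45.2 and 16.6 ± 2.59 (SD, n = 3). The log2 (foldchange) was 4.20 (standard error 0.14, adjusted p = 1.6e-07), 3.59 with median-of-ratios scaling and 2.01 relative to the Sertoli genes. After centring on the Sertoli genes, DKK3 was among the 34 genes of 15042 that were called higher.

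DKKL1 (ENSBGRG00000015226), a Dickkopf-like protein of the acrosome of spermatids and sperm, had 129.5, 63.3 and 39.4 FPKM in cattle-yak and 934, 1053 and 987 in yak. It was 12.8-fold higher in yak by the group means, and no animal of one group reached the values of the other. The log2 (foldchange) was −3.83 (standard error 0.36, adjusted p = 1.9e-05). Among the cattle-yak DKKL1 was highest in TES5, as was the summed FPKM of the elongating spermatid markers, which was 78.7, 29.4 and 15.8 in TES5, TES6 and TES7. The round spermatid markers summed to 81.8, 33.6 and 58.0 FPKM in the same animals. Most of each sum was TEX101, with 55.4, 20.9 and 53.6 FPKM, the only marker of that list not called. ACR had 14.9, 7.42 and 2.05 FPKM, SPACA1 9.51, 4.21 and 2.26, SPACA4 1.55, 0.939 and 0, and SUN5 0.445, 0.0785 and 0.151. Each of these was highest in TES5. That order was not particular to spermatid markers. The spermatocyte markers summed to 243, 153 and 227 FPKM and those of Leydig cells to 12471, 11911 and 10468, also highest in TES5. The spermatogonia markers, at 314, 371 and 378, were lowest there. The part of spermatids in the value of DKKL1 was not tested.

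WIF1 (ENSBGRG00000017933), which binds Wnt ligands outside the cell, had 0.328, 0.497 and 0.335 FPKM in cattle-yak and 6.21, 7.08 and 6.37 in yak. This corresponded to 7, 10 and 7 fragments against 147, 167 and 149. The groups were widely separate, and WIF1 fell by 2.45 on the log2 scale (standard error 0.15, adjusted p = 1.6e-06), or by 4.03 with voom on the fragments.

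DKK1 and DKK2, which bind LRP6, were higher in cattle-yak. DKK1 (ENSBGRG00000017698) had 1.40, 2.33 and 2.65 FPKM in cattle-yak and 0.180, 0.361 and 0.638 in yak. DKK2 (ENSBGRG00000006499) had 4.19, 6.92 and 3.78 FPKM against 2.11, 1.53 and 0.588. The log2 (foldchange) was 1.16 for DKK1 (adjusted p = 1.1e-03) and 1.33 for DKK2 (adjusted p = 2.8e-03), and neither was past 1 with median-of-ratios scaling (0.87 and 0.90).

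The SFRP genes, whose proteins bind Wnt ligands through a Frizzled-like domain, showed no called difference. SFRP1 had 8.02, 12.8 and 6.26 FPKM in cattle-yak and 11.2, 8.91 and 2.64 in yak, SFRP2 0.793, 2.14 and 0.736 against 1.30, 3.32 and 1.38, and SFRP4 0.487, 0.516 and 0.828 against 1.24, 0.440 and 0.0739. In each of these the animals of the groups overlapped, with an adjusted p of 0.48 for SFRP1, 0.24 for SFRP2 and 0.78 for SFRP4. FRZB, another member of the SFRP family, had 1.45, 0.936 and 2.45 FPKM against 0.284, 0.456 and 0.230. FRZB had 0.94 on the log2 scale (adjusted p = 4.6e-03), and it passed 1 without TES6 (1.14) or Yak9 (1.01). With voom on the fragments FRZB had 2.17 and was called higher. SFRP5 and DKK4 were under the minimum, with 31 and 1 fragments in cattle-yak and 11 and 3 in yak.

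**Figure D4:**
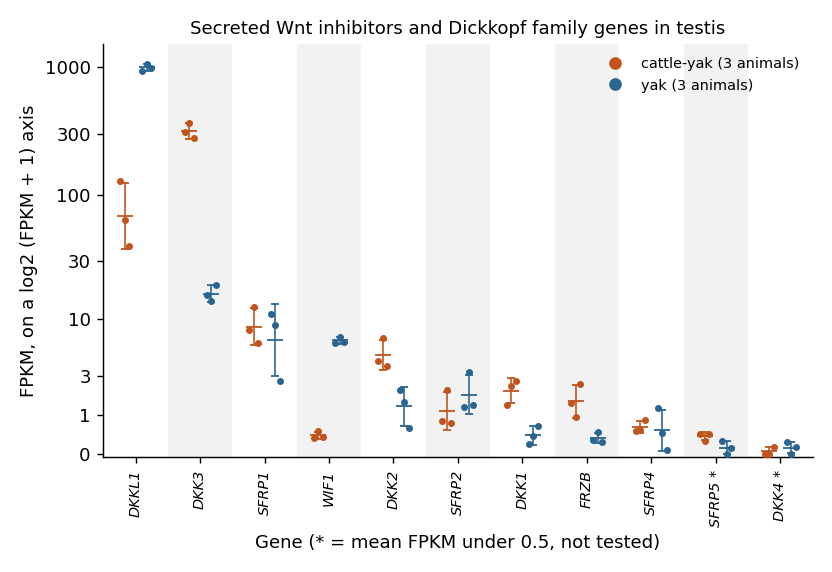
FPKM (log2 (FPKM + 1) axis) of 11 secreted inhibitors and Dickkopf relatives in each animal, with the mean and SD of the log2 values (n = 3). DKKL1 near 1000 FPKM and WIF1 near 6 stand out in yak, DKK3 near 300 in cattle-yak, and the SFRP1 values of the groups overlap.

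In the cytoplasm 2 of 9 genes, DVL1 and NKD2, were called higher (22.2%, against 33.4% of all genes). With median-of-ratios scaling 2 others, DVL3 and APC2, were called lower (22.2%, against 27.8% of all genes). CTNNB1 (ENSBGRG00000021135), which encodes β-catenin, was the most abundant of the 9 genes with 106.4, 101.4 and 103.6 FPKM in cattle-yak and 55.4, 56.5 and 48.1 in yak. All cattle-yak values were above those of yak, but the log2 (foldchange) of 0.95 (standard error 0.10, adjusted p = 2.9e-05) was under the threshold. It was 0.34 with median-of-ratios scaling and 1.10 with quantile normalization, where it was called. DVL1 (ENSBGRG00000012559), an adaptor recruited by Frizzled, had 8.66, 8.62 and 8.02 FPKM against 1.93, 2.40 and 3.64, and rose by 1.39 on the log2 scale (adjusted p = 1.7e-04).

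Neither of the other Dishevelled genes was called. DVL2 had 27.0, 27.2 and 28.2 FPKM in cattle-yak and 30.5, 28.6 and 27.7 in yak, with overlap (adjusted p = 0.51), and DVL3 had 17.6, 21.5 and 15.4 against 40.5, 30.2 and 36.8. DVL3 had a value of −0.94 on the log2 scale (adjusted p = 5.6e-04), −1.54 with median-of-ratios scaling, and past −1 without TES6 (−1.06) or Yak9 (−1.06). The difference between the 3 genes in their fold change was not tested.

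NKD2 (ENSBGRG00000007004), an antagonist that binds Dishevelled, had 3.73, 3.87 and 4.30 FPKM in cattle-yak and 0.863, 1.002 and 1.36 in yak, and rose by 1.27 on the log2 scale (adjusted p = 9.5e-05). DVL1 and NKD2 had 0.89 and 0.86 with median-of-ratios scaling and were not called then. AXIN2, a feedback inhibitor and a widely used target gene of the canonical branch, had 2.93, 4.62 and 4.24 FPKM against 1.53, 1.35 and 1.65, and NKD1, another such target, 2.64, 2.57 and 1.29 against 0.886, 0.499 and 0.644. Both were higher in every cattle-yak than in any yak without reaching the fold threshold, at 0.96 (adjusted p = 1.1e-03) for AXIN2 and 0.89 (adjusted p = 5.1e-03) for NKD1. Each passed 1 with 1 animal left out, AXIN2 without TES5 (1.11) and NKD1 without TES7 (1.11), and voom on the fragments called both higher, at 1.35 and 1.62. AXIN1 overlapped between the groups (adjusted p = 0.17), with means of 15.6 ± 0.49 and 13.0 ± 2.93 FPKM (SD, n = 3). APC2 had 0.228, 0.278 and 0.291 FPKM against 1.63, 1.54 and 0.924, a log2 (foldchange) of −0.89 (adjusted p = 1.5e-03), which was −1.13 with median-of-ratios scaling and −1.03 without Yak10, and −2.31 with voom, where it was called lower.

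Of the TCF/LEF factors, LEF1 was the most abundant in yak and was called lower. LEF1 (ENSBGRG00000006944) had 6.99, 7.85 and 6.08 FPKM in cattle-yak and 45.5, 49.5 and 44.3 in yak. The groups were far apart relative to the spread within each, and the log2 (foldchange) was −2.58 (standard error 0.12, adjusted p = 5.8e-07). TCF7L2 had 10.5, 11.9 and 11.2 FPKM against 5.32, 4.54 and 5.72, and TCF7 had 8.38, 6.29 and 8.92 against 3.69, 4.64 and 4.90. Both were above yak in each cattle-yak, with a log2 (foldchange) of 0.98 (adjusted p = 1.8e-04) and 0.71 (adjusted p = 4.7e-03), under the threshold, and TCF7L2 passed it without TES5 (1.02) or Yak10 (1.04) and with voom (1.11). TCF7L1 had 2.73, 4.31 and 3.13 FPKM against 6.86, 7.31 and 4.36, with a log2 (foldchange) of −0.70 (adjusted p = 0.016), and −1.20 with median-of-ratios scaling, where it was called lower. So in every yak LEF1 stood above the other 3 factors, and in every cattle-yak it stood below TCF7L2.

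**Figure D5:**
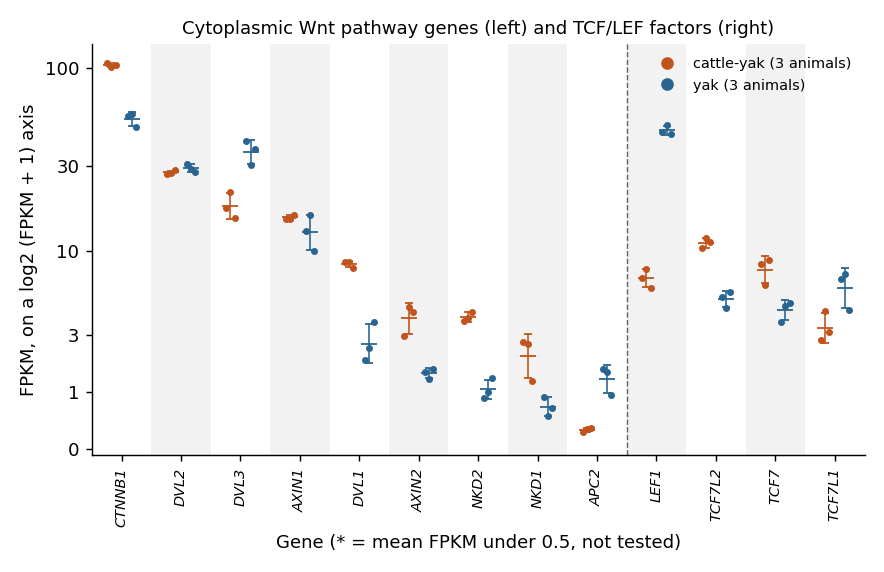
FPKM (log2 (FPKM + 1) axis) of 9 cytoplasmic Wnt pathway genes (left) and 4 TCF/LEF factors (right) in each animal, with the mean and SD of the log2 values (n = 3). LEF1, DVL3, TCF7L1 and APC2 are higher in yak, DVL2 and AXIN1 overlap, and the other genes are higher in cattle-yak.

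Other components of the pathway were counted from a list of 53 symbols outside the 63. CHD8, CER1, TRABD2A and BAMBI were not found. Genes and not symbols were counted, so some symbols entered more than once. Of its 61 genes, 58 were tested, 20 were called higher (34.5%) and 7 lower (12.1%), against 33.4% and 20.8% of all genes, with a median log2 (foldchange) of 0.70. GPC4, a glypican of the cell surface, had 64.6, 54.8 and 51.0 FPKM in cattle-yak and 10.2, 8.55 and 10.4 in yak, a log2 (foldchange) of 2.43. The symbol RBX1, a ubiquitin ligase subunit, stands on 2 genes, which makes their values uncertain, with 2.86 for ENSBGRG00000008714 and 0.92 for ENSBGRG00000006304, which was not called. CCN4, a secreted protein known as a Wnt target, had 0.897, 0.158 and 0.687 FPKM against 9.09, 7.36 and 7.22, and fell by 2.52 on the log2 scale. CSNK1G1, a casein kinase, fell by 1.81. With median-of-ratios scaling 14 of the 58 were called higher (24.1%) and 11 lower (19.0%), against 17.7% and 27.8% of all genes.

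In the planar cell polarity branch 8 of 18 tested genes were called higher (44.4%) and 1 lower (5.56%), against 33.4% and 20.8% of all genes. With median-of-ratios scaling 3 were called higher (16.7%) and 4 lower (22.2%), against 17.7% and 27.8%. The atypical cadherin CELSR2 had 31.3, 26.0 and 26.0 FPKM in cattle-yak and 6.33, 6.58 and 7.21 in yak, and its relative CELSR3 had 1.48, 0.961 and 1.03 against 6.18, 7.71 and 6.62. These 2 cadherins thus went in opposite directions, with log2 (foldchange) values of 1.90 and −1.86. RYK, a Wnt receptor outside the Frizzled family, had a log2 (foldchange) of 1.86.

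Of 16 tested genes known as Wnt targets in other tissues, 5 were called higher, with either the deposited or median-of-ratios scaling, and 11 were not called. These 5 were 31.2% of the targets, where all genes gave 33.4% under the former and 17.7% under the latter. GJA1, a gap junction protein, had 148.5, 124.6 and 130.4 FPKM in cattle-yak and 17.0, 14.2 and 18.8 in yak, and rose by 2.94 on the log2 scale (adjusted p = 3.9e-07). MYCN had 22.5, 23.0 and 17.1 FPKM against 3.93, 2.52 and 2.24, a log2 (foldchange) of 2.50. The other called genes were JUN, TBX3 and MYC, with 2.16, 1.83 and 1.54. Some of the 63 genes are themselves targets of the canonical branch, but these were not counted as a set. AXIN2 and NKD1 were under the threshold on the log2 (FPKM + 1) scale and called higher with voom. DKK1 was called higher on that scale (1.16) and with voom (2.40), while LEF1 and ZNRF3 were called lower by both.

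The deposited annotation placed 155 genes in the KEGG Wnt signalling pathway, 57 of them among the 63. Of its 136 tested genes 56 were called higher (41.2%) and 14 lower (10.3%), against 33.4% and 20.8% of all genes. Of the 94 tested genes outside the 63 there were 38 (40.4%) and 9 (9.57%). With median-of-ratios scaling these counts were 33 and 24 of the 136 (24.3% and 17.6%), and 21 and 15 of the 94 (22.3% and 16.0%), against 17.7% and 27.8% of all genes. The median log2 (foldchange) was 0.76 over the tested genes of the pathway, 0.95 over the 47 tested Wnt genes and 0.51 over all genes.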

How the data were processed

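Testis RNA of 3 cattle-yak and 3 yak was sequenced as paired-end libraries. Per the study's methods, the authors trimmed reads with Trimmomatic, mapped both groups to the yak genome LU_Bosgru_v3.0 with HISAT2 and calculated FPKM with Cufflinks. The values are whole fragments over length and depth, which Cufflinks' estimates need not be, so the tool behind them is uncertain. The labels also name DESeq, whose output was not used here. The deposited FPKM values are relative to gene length and library depth, with no further scaling between libraries, and the hybrid's cattle alleles were mapped to yak. Columns were matched to animals by their titles.

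The two-sided test was limma's (version 3.58.1, R 4.3.3, lmFit, then eBayes with a variance trend) on log2 (FPKM + 1), for genes whose average over 6 animals reached 0.5 FPKM. P-values were adjusted by Benjamini-Hochberg over the 15042 genes tested. The steps between FPKM values gave whole fragments for 17973 genes, and in 100.0% of 10991 genes used to check them the implied gene length was whole within 0.02 bases. On simulated data with 200 genes changed 4-fold among 15042, limma called 196 in the right direction and 0 of the unchanged genes. The changed genes were drawn from those with many fragments, with equal numbers raised and lowered. The simulation therefore cannot show how calls fare in low genes or under a shift of many genes between the groups. The recovery returned exact fragment numbers for 98.38% of 17604 genes. Fold changes on this scale understate those of low genes, and intervals from fragments cover counting error only.

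The 63 genes, their roles and the gene lists were chosen with earlier results of these data known. Genes described in full are, per role, the most abundant, the 2 with the largest called change in each direction and those called whose direction turns under another scaling, and the other tested genes are given more briefly. Chromosome positions were not used here. Results were recomputed with a pseudocount of 0.1 or 0.01, without the filter or with a minimum of 5 FPKM, after median-of-ratios, TPM or quantile scaling, after centring on 12 Sertoli genes, with limma's trend left off or its prior made robust, without a fold threshold, by voom on fragments and with each animal omitted. Figures were drawn with matplotlib 3.10.9 in Python 3.11.15.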

Additional observations from a re-analysis of the deposited data

How the results depend on the processing

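Omitting single animals, 20 to 22 of the Wnt genes were called higher and 6 to 7 lower, and of all genes 4904 to 5133 and 3076 to 3192. The counts of 20 higher and 6 lower moved to 13 and 10 with median-of-ratios scaling, to 1 and 29 after centring on the Sertoli genes and to 10 and 2 with a minimum mean of 5 FPKM, where 20 of the genes were tested. Those of all 15042 genes, 5023 and 3136, moved to 2660 and 4176, to 34 and 10903, and to 3908 and 2443 of 10782. Without a fold threshold 28 of the Wnt genes were higher and 11 lower. The matching counts over all genes were not made, so these 2 counts have no share to be set against. Under the pseudocounts, TPM, quantile scaling, no filter, limma's trend left off or its prior made robust, and voom, both counts of Wnt genes stayed within 1.5 times, with 26 higher and 9 lower by voom. By voom 5961 of all genes were called higher and 3419 lower. Centring on the Sertoli genes turned 17 of the described genes below 0: LRP6 (−0.89), CTNNB1 (−1.24), DVL1 (−0.80), NKD2 (−0.92), WNT5A (−0.47), WNT11 (−0.69), WNT2B (−1.16), WNT2 (−0.54), WNT9A (−0.64), WLS (−0.68), FZD6 (−0.040), FZD8 (−0.52), FZD4 (−0.60), FZD2 (−0.58), FZD7 (−0.82), DKK2 (−0.86) and DKK1 (−1.03). This follows from its construction, since these markers are higher in cattle-yak. No other alternative turned the direction of the genes named by the rule. Among the uncalled genes, median-of-ratios scaling turned SFRP1 (−0.19), AXIN1 (−0.32), WNT7A (−0.07), RSPO3 (−0.03) and SFRP4 (−0.13). No paired analysis was possible because the labels give no number that the groups share. At this depth 1 fragment on 1 kb stands for 0.0761 to 0.0895 FPKM, which limits the genes under 0.5 FPKM.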
